A study of Mus musculus with 9 samples.

Results

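The Hox gene clusters were examined in mouse embryos at embryonic day 7.5 (E7.5), when the body axis is being laid down during gastrulation. The members were all genes of the platform annotation whose single symbol is Hoxa, Hoxb, Hoxc or Hoxd followed by a paralogue number, with every probe set that carries such a symbol. This gave 33 Hox genes of 15965 genes with a single symbol, on 54 of 36899 probe sets. Genes not analysed here, having no probe set of their own in this annotation, include Hoxc11, Hoxc12, Hoxc13, Hoxd3 and Hoxd4. Total RNA came from 3 pools of embryos. The first held about 50 embryos in which beta-catenin, the effector of canonical Wnt signalling, was deleted where the cytokeratin 19 promoter drives Cre recombinase (the knockout). The second carried 1 floxed and 1 deleted beta-catenin allele (floxed/deleted). The third had a floxed allele beside a wild-type one (wild type/floxed), so that both control pools carried a floxed allele too. The sources used here state neither Cre status nor embryo number for the last 2 pools, and no strain for any. Each pool was hybridised to 1 array of each of 3 Affymetrix designs, U74Av2, U74Bv2 and U74Cv2 (A, B and C below). The designs carry different probe sets, so there was 1 array per pool for every value, no replicate, and no test or error could be given. In a pool of whole embryos, fewer cells that express a gene and less RNA per cell cannot be told apart.

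Hox genes encode homeodomain transcription factors that assign position along the head-to-tail axis. In the mouse they lie in 4 clusters, and within a cluster the low-numbered, 3′ genes are switched on first and reach furthest forward, while the high-numbered, 5′ genes follow later and stay posterior. Activation starts around the primitive streak during gastrulation, and Wnt signals, retinoic acid and the Cdx homeodomain factors are known inputs to it. Hox proteins bind DNA with Pbx and Meis partners. Here paralogues 1 to 4 are called anterior, 5 to 8 central and 9 to 13 posterior.

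The promoter stretches below show the sequence before 3 genes of these clusters. They are the 250 bases before the start site, from RefSeq on mouse build GRCm38.p6, 5′ to 3′ on the gene's strand. Hoxb1 was the only gene among those lower in the knockout whose promoter was in the table, Hoxd1 is its paralogue, and Hoxb8, in the same cluster, was not lower and was chosen after its matches were seen. Capitals mark matches to the Cdx core TTTATG or the Pbx-Hox core TGATNNAT on either strand. The Tcf/Lef core CTTTGA, searched likewise, had no match in these windows.
Hoxb1, chr11:96365508-96365757, plus strand: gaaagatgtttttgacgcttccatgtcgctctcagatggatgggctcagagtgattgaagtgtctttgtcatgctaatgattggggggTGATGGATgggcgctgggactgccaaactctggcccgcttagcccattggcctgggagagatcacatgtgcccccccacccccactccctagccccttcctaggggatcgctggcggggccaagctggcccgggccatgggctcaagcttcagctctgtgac
Hoxb8, chr11:96281655-96281904, plus strand: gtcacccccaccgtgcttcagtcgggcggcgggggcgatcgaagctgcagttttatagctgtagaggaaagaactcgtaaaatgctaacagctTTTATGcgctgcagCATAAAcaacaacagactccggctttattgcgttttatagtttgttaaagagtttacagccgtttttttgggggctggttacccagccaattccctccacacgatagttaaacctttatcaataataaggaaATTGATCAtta
Hoxd1, chr2:74762730-74762979, plus strand: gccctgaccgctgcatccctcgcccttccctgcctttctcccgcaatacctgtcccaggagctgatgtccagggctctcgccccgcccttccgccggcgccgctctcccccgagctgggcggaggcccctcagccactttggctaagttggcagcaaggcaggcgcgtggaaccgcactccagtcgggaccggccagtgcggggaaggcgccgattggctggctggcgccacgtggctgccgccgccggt
The Hoxb1 stretch held 1 Pbx-Hox match, beginning 162 bases before the start site. The Hoxb8 stretch held 2 Cdx matches, beginning 157 and 143 bases before it, and 1 Pbx-Hox match, while that of Hoxd1 held none. Promoter windows were found for 20 of the 33 Hox genes, 22 windows in all. The Tcf/Lef core was in 3 of them (13.6%) against 13.8% of 32851 promoter windows of the table, the Cdx core in 3 (13.6%) against 10.8%, and the Pbx-Hox core in 4 (18.2%) against 7.68%. These matches describe letters in short windows and were not tested for binding.

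Most Hox probe sets gave little signal at this stage. Each value was set against the pooled median of all probe sets on the 3 arrays of its design, equal to 57.3 (design A), 90.0 (B) or 80.9 (C) signal units. This median served as a floor, and it is no detection limit. Of the 54 Hox probe sets, 33 lay below it on all 3 arrays, 7 above it on 1 array, 5 on 2 arrays and 9 on all 3. The share above it on all 3 arrays was 5 of 38 on design A (13.2%, against 41.0% of all probe sets there), 1 of 8 on B (12.5%, against 34.7%) and 3 of 8 on C (37.5%, against 28.6%). Of those 9 probe sets, 5 have a suffix that marks sequence shared with other transcripts or an incomplete probe choice, as 13 of all 54 do. They belonged to 9 genes, Hoxa4, Hoxa6, Hoxb1, Hoxb2, Hoxb4, Hoxb6, Hoxb8, Hoxb13 and Hoxc9.

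The counts of probe sets above the floor differed between clusters and paralogue classes. In the knockout 7 of 15 Hoxb probe sets were above it, against 7 in floxed/deleted embryos and 10 in wild type/floxed. For the Hoxa cluster the numbers were 2 in the knockout, 4 in floxed/deleted embryos and 2 in wild type/floxed, of 17 probe sets. Of 10 Hoxc probe sets 2, 4 and 2 were above it in those pools, and of 12 Hoxd probe sets 1, 1 and 2. Hoxb thus reached 46.7%, 46.7% and 66.7% in the 3 pools, against 49.0%, 51.1% and 50.0% of all probe sets. The clusters differ in their mix of designs. Above the floor on at least 1 array were 60.0% of all probe sets on design A, 66.5% on B and 73.3% on C. By class, 10 of 18 anterior probe sets were above the floor on at least 1 array, against 5 of 18 central and 6 of 18 posterior ones, where all probe sets together reached 66.5%. On design A alone these counts were 6 of 12, 4 of 14 and 3 of 12, and 0 of those 12 posterior probe sets was above the floor on all 3 arrays. In the knockout 7 anterior, 3 central and 2 posterior probe sets were above it, in floxed/deleted 7, 4 and 5, and in wild type/floxed 8, 4 and 4.

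**Figure D1:**
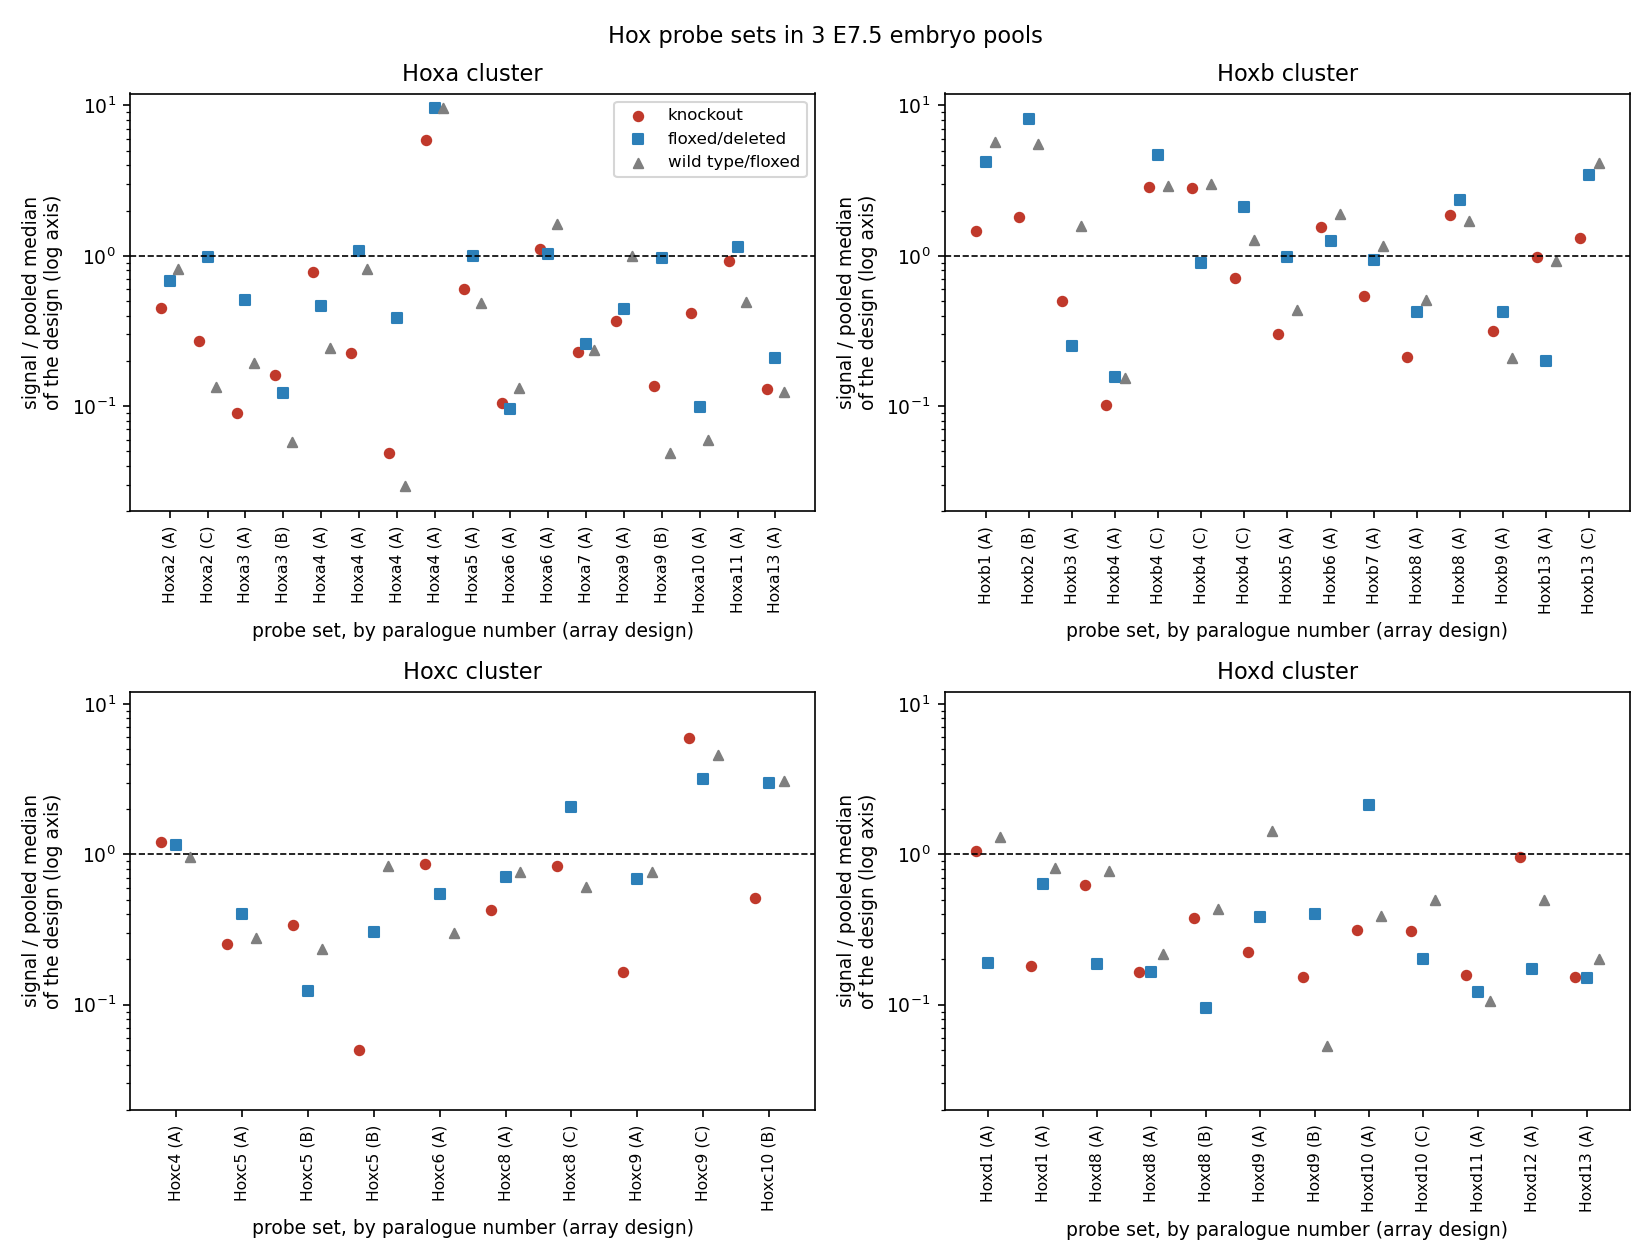
Signal of each of the 54 Hox probe sets divided by the pooled median of its array design (log axis), by cluster and paralogue number, with the design in brackets. Each point is 1 array of the knockout, floxed/deleted or wild-type/floxed pool, and the dashed line is the pooled median; 33 probe sets lie below it in all 3 pools.

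**Figure D2:**
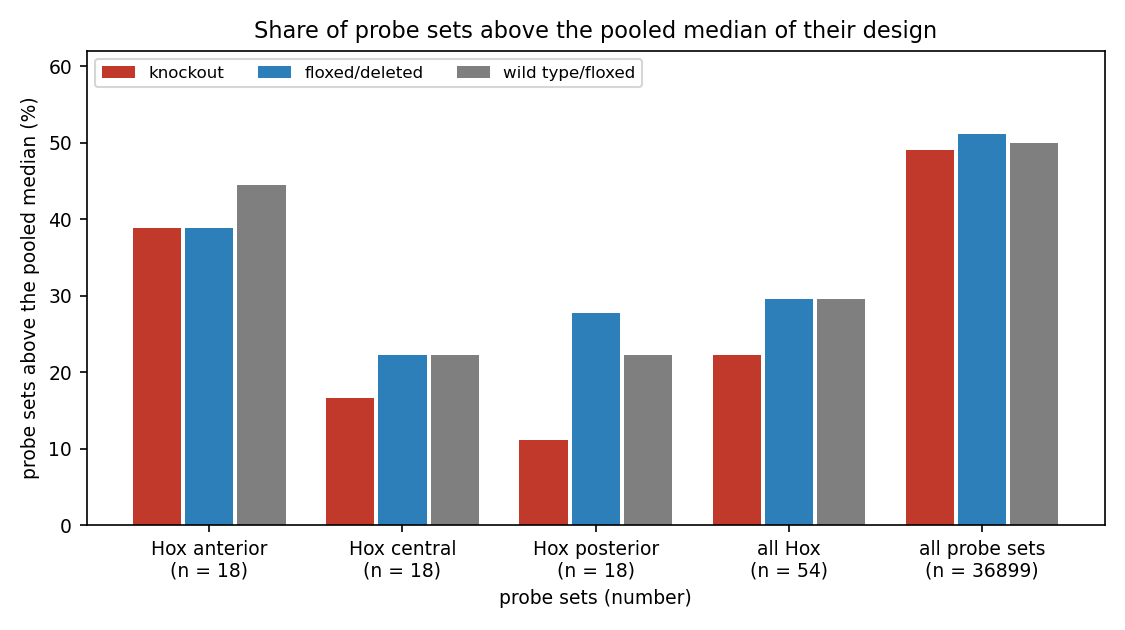
Percent of probe sets above the pooled median of their design in the knockout, floxed/deleted and wild-type/floxed pools (bars), for anterior, central, posterior and all Hox probe sets and for all 36899 probe sets. Hox probe sets reach 22.2%, 29.6% and 29.6% in the 3 pools, against 49.0%, 51.1% and 50.0% of all probe sets.

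A gene was measured if at least 1 of its probe sets was above the floor on at least 1 array, and its brightest probe set then stood for it. This held for 18 of the 33 Hox genes. The 15 others were Hoxa2, Hoxa3, Hoxa5, Hoxa7, Hoxa9, Hoxa10, Hoxa13, Hoxb5, Hoxb9, Hoxc5, Hoxc6, Hoxd8, Hoxd11, Hoxd12 and Hoxd13. The probe sets below the floor on all arrays ranged over 1.7 to 56.8 signal units on design A, over 4.4 to 86.6 for B and over 10.8 to 79.2 for C. Values below the floor were set to it for folds and log2 differences, so a fold with 1 side at the floor is written "at least". A pool stood apart for a gene when each of the others differed from it by at least 1.5-fold in the same direction.

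Among the anterior genes, those of paralogue groups 1 and 2 in the Hoxb cluster were lower in the knockout. Hoxb1, which gives the hindbrain segment of the facial nerve its identity, gave 83.5 signal units in the knockout pool, against 240.5 in floxed/deleted embryos and 326 in wild type/floxed. The knockout was the lowest pool, 2.88-fold below floxed/deleted and 3.90-fold below wild type/floxed. Its log2 difference from the mean of both controls was -1.75, while over measured probe sets of design A the controls' own log2 differences had a standard deviation of 0.44. With the floor at the 70th percentile of the signals, the log2 difference from the nearer control was -0.84 instead of -1.53.

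Hoxb2, the neighbour of Hoxb1 in the cluster and likewise a hindbrain gene, stood at 163 in the knockout, against 734 in floxed/deleted embryos and 500.2 in wild type/floxed. It was 4.49-fold below the first control and 3.06-fold below the second. The controls themselves differed by 0.55 on the log2 scale, near the standard deviation of 0.59 on design B, and the knockout lay 1.89 below their mean. Hoxa4, which patterns neck vertebrae, read 336 in the knockout, against 553.5 and 552 in floxed/deleted embryos and wild type/floxed, 1.64-fold lower than the nearer control. This probe set carries a suffix. Of 3 other Hoxa4 probe sets 1 was above the floor on a single array, with 12.9 in the knockout, 61.9 in floxed/deleted embryos and 46.7 in wild type/floxed. The other two stayed below it throughout, at 44.9, 26.7 and 13.9 for one and 2.8, 22.1 and 1.7 for the other. Without suffixed probe sets the log2 difference of Hoxa4 was 0, with equal medians -0.58 and as a mean over its measured probe sets -0.36, all under 1.5-fold.

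The remaining anterior genes did not stand apart in the knockout. Hoxb4, which patterns the second neck vertebra and acts in blood stem cells, had 4 probe sets that disagreed. The brightest gave 231 in the knockout, 381 in floxed/deleted embryos and 235 in wild type/floxed, so floxed/deleted was 1.62-fold above the nearer pool. A second gave 227 in the knockout and 72.5 in floxed/deleted, with 242 in wild type/floxed, which made the same pool at least 2.81-fold lower. The third gave 57.5, 169.7 and 102.5 in the knockout, floxed/deleted and wild type/floxed, and the fourth 5.8, 8.9 and 8.8. All but the last are on design C, where the standard deviation between the controls was 0.88. The brightest and the third carry a suffix, while the second carries none. Hoxb3, a hindbrain gene, had 28.5 in the knockout and 14.5 in floxed/deleted, both below the floor, against 91.1 in wild type/floxed.

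Hoxc4 had 68.9, 65.9 and 54.8 in the knockout, floxed/deleted and wild type/floxed, values close to the floor of 57.3. Hoxd1, the paralogue of Hoxb1 in the Hoxd cluster, read 59.9 in the knockout, 10.8 in floxed/deleted embryos and 74.2 in wild type/floxed, so that the knockout lay between the controls. Its second probe set gave 10.3, 36.6 and 46.4, all below the floor. The paralogue group 2 gene of the Hoxa cluster, Hoxa2, a regulator of second pharyngeal arch identity, was below the floor on all arrays. Its probe set on design A read 25.9 in the knockout, 38.9 in floxed/deleted embryos and 46.5 in wild type/floxed, and that on C read 21.8, 79.2 and 10.8.

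Of the 5 measured central genes, which pattern the trunk, 0 stood apart in the knockout. Hoxb6 read 89.0 in the knockout, 71.6 in floxed/deleted embryos and 109.1 in wild type/floxed. Hoxb8 read 106.4, 134.6 and 97.2 in the same order of pools, on a suffixed probe set, and 12.1, 24.3 and 29.0 on another. In both genes the knockout lay between the controls.
Hoxa6 read 63.7 in the knockout, 58.7 in floxed/deleted embryos and 92.7 in wild type/floxed on a suffixed probe set, while its other one was at 6.0, 5.5 and 7.6. Hoxb7 had 30.8 in the knockout, 53.9 in floxed/deleted embryos and 66.5 in wild type/floxed, the last alone above the floor. Hoxc8 had 68.1 in the knockout, 168 in floxed/deleted embryos and 49.0 in wild type/floxed on design C, so floxed/deleted alone was above the floor. Its probe set on A gave 24.3 in the knockout, 40.4 in floxed/deleted embryos and 43.5 in wild type/floxed.

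Among the posterior genes, Hoxb13 and Hoxc10 were lower in the knockout. Hoxc10, a gene of the lumbar region, had 46.2 in the knockout, below the floor, against 266.5 in floxed/deleted embryos and 277 in wild type/floxed. Its single probe set was thus at least 2.96-fold lower, with controls 0.06 apart on the log2 scale. Relative to the nearer control its log2 difference was -1.57, with -0.66 for a floor at the 70th percentile and -2.53 for one at the 30th. Hoxb13, a gene of the tail end of the spine, had 105.9 in the knockout, against 279 in floxed/deleted embryos and 337 in wild type/floxed on design C, 2.63-fold lower than the nearer control. Its log2 difference from the mean of both controls was -1.53, where the controls' own differences on design C had a standard deviation of 0.88. From the nearer control the log2 difference was -1.40, and -0.76 with the 70th percentile floor. Its probe set on design A lay below the floor in every pool, at 55.9 in the knockout, 11.4 in floxed/deleted embryos and 52.6 in wild type/floxed.

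Hoxc9, a thoracic gene, was the brightest in the knockout, at 481 against 255 in floxed/deleted embryos and 371.5 in wild type/floxed, 1.29-fold above the nearer control. That probe set carries a suffix, and the second, on design A, gave 9.5 in the knockout, 39.4 in floxed/deleted embryos and 43.6 in wild type/floxed. Hoxd10, expressed in lumbar motor neurons, had 17.9 in the knockout, 121.6 in floxed/deleted embryos and 22.4 in wild type/floxed, which left floxed/deleted alone above the floor. Its second probe set read 25.1, 16.4 and 40.1.
Hoxd9 had 12.8 in the knockout, 21.8 in floxed/deleted embryos and 82.3 in wild type/floxed, where alone it was above the floor. Its probe set on design B read 13.7, 36.2 and 4.8 in the same order, all below the floor. Hoxa11, which shapes the forearm and the uterus, had 52.5 in the knockout, 66.0 in floxed/deleted embryos, just above the floor, and 28.2 in wild type/floxed. Hoxa10, another gene of the uterine lining, was below it everywhere, at 23.9 in the knockout, 5.7 in floxed/deleted embryos and 3.4 in wild type/floxed.

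**Figure D3:**
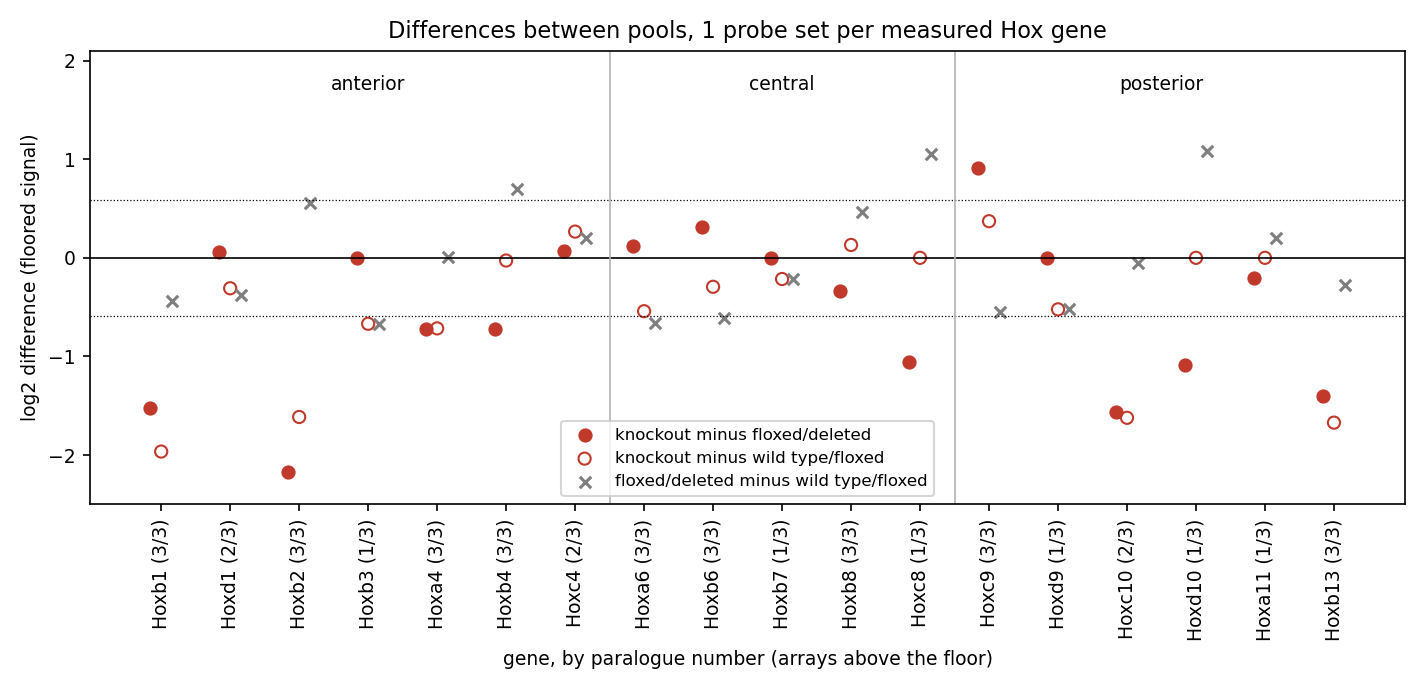
Log2 differences between pools for the probe set standing for each of the 18 measured Hox genes, by paralogue number, with the number of arrays above the floor in brackets. Red points are the knockout minus each control, grey crosses floxed/deleted minus wild type/floxed, and dotted lines mark 1.5-fold; Hoxb1, Hoxb2, Hoxa4, Hoxc10 and Hoxb13 have both red points below the lower line.

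The count of genes standing apart asked how often a pool differed from both others. In the knockout 5 of 18 measured Hox genes were lower (27.8%, against 5.77% of 12442 measured genes of the series) and 0 were higher (6.49% of all genes). By any amount, 6 were lower than both controls and 2 higher. Counted this way, the floxed/deleted pool had the largest value for 7 genes and the smallest for 4. The wild type/floxed pool had the largest for 9 genes and the smallest for 2. Shares over all measured genes were not computed for these counts, so they do not set the knockout apart. By the 1.5-fold criterion, in floxed/deleted 0 were lower (5.59% of all genes) and 3 were higher, Hoxb4, Hoxc8 and Hoxd10 (16.7%, against 7.47%). Without suffixed probe sets 1 was lower and 2 were higher there, as Hoxb4 went from higher to lower. In wild type/floxed 0 were lower (5.6% of all genes) and Hoxb3 was higher (5.56%, against 6.56%). Hoxc10, Hoxc8, Hoxd10 and Hoxb3 were measured through the pools in which they were high, so part of these counts follows from the filter. Among the 9 Hox genes that exceeded the floor on every array, 4 were lower in the knockout, against 5.32% of 7975 such genes. The designs differ in their background. On A 2 of 12 Hox genes were lower, against 3.37% of all genes whose brightest probe set is there, on B 2 of 2, against 5.3%, and on C 1 of 4, against 9.53%. Below floxed/deleted alone there were 8 of 18, against 14.9% of all genes, and below wild type/floxed alone 6 of 18, against 13.9%. From probe sets of design A alone there were 2 of 12, against 3.51%.

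Whether anterior and posterior genes differed depended on which genes were counted, and also on settings such as the floor and the control pool. Lower in the knockout were 3 of 7 measured anterior genes, 0 of 5 central and 2 of 6 posterior ones. The median log2 difference of the knockout from the mean of both controls was -0.37 for anterior, -0.11 for central and -0.40 for posterior genes, beside -0.30 for all 18 Hox genes and -0.02 for all measured genes. The anterior median was thus 0.03 above the posterior one, and this difference ran from -0.79 to 1.16 over the other settings, below 0 in some and above it in others. Among genes above the floor on all 3 arrays the anterior median was -1.23 (4 genes, all below 0) and the posterior -0.45, from 2 genes, Hoxb13 at -1.53 and Hoxc9 at 0.64. With the genes below the floor on all arrays entered at 0, the median was -0.33 for the 9 anterior genes, 0 for the 13 posterior and 0 for all 33. For floxed/deleted minus wild type/floxed the median over measured Hox genes was -0.14, with 0.005 for the anterior and -0.17 for the posterior ones, and 0 over all measured genes. Within single classes the values were wide. They ran from -1.89 for Hoxb2 to 0.17 for Hoxc4 among anterior genes, and from -1.59 for Hoxc10 to 0.64 for Hoxc9 among posterior ones.

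Genes known to act with or upstream of the Hox clusters were then set beside them, from a list of 36 regulators and cofactors, of which 27 were measured. By the 1.5-fold criterion, 9 of the 27 were lower in the knockout and 0 higher, where 5.77% and 6.49% of all measured genes were. The list was chosen with earlier results of these data known, so its counts are not independent of these values. In floxed/deleted 2 were lower (5.59% of all measured genes) and 2 higher (7.47%), and in wild type/floxed 2 were lower (5.6%) and 2 higher (6.56%). The retinoic acid genes among the 9 were Rara, Crabp1 and Crabp2. Rara, a retinoic acid receptor, had 499 in the knockout, against 991 in floxed/deleted embryos and 864 in wild type/floxed. Crabp1, which binds retinoic acid in the cytoplasm, had 72.9, against 156.5 and 222, 2.15-fold below the nearer control. Crabp2 stood at 121 in the knockout, against 224.5 in floxed/deleted embryos and 208 in wild type/floxed, but a second probe set gave 149.3 in the knockout, 63.6 in floxed/deleted embryos and 147.4 in wild type/floxed.

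Aldh1a2, which makes retinoic acid, did not stand apart on its brightest probe set, which carries a suffix and is on design C. That probe set read 343 in the knockout, 344 in floxed/deleted embryos and 430.0 in wild type/floxed. A second probe set, on design A, gave 8.5 in the knockout, against 97.7 in floxed/deleted embryos and 102.2 in wild type/floxed. That was at least 1.71-fold lower. This probe set carries no suffix, and without suffixed probe sets the log2 difference of Aldh1a2 from the nearer control was -0.77. The last Aldh1a2 probe set, suffixed and on design C, read 73.3 in the knockout, 191.4 in floxed/deleted embryos and 66.2 in wild type/floxed. Floxed/deleted stood apart there. Cyp26a1, which degrades retinoic acid, lay between the controls, at 202 in the knockout, 238 in floxed/deleted embryos and 130.3 in wild type/floxed. Rarb, a retinoic acid receptor and a known target of it, had 665 in the knockout, 303.5 in floxed/deleted embryos and 515 in wild type/floxed, and floxed/deleted was the pool that stood apart.

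Of the Cdx genes, which encode direct activators of trunk Hox genes, Cdx1 was at 9.1 in the knockout, against 208 in floxed/deleted embryos and 237 in wild type/floxed. That was at least 3.63-fold lower. Cdx2 had 56.6, 57.2 and 66.2 in the same pools, around the floor, and Cdx4 was below it throughout. Gbx2, which positions the front of the hindbrain, had 7.3 in the knockout, against 153 and 239. Wnt3a, a ligand of the posterior streak, had 23.3, against 179 and 218. Cdx1, Gbx2, Wnt3a and Meis1 were measured through the controls alone, so the knockout had to be lower. Among the 18 genes of the list above the floor on all 3 arrays, 5 were lower in the knockout, against 5.32% of 7975 such genes.
Among cofactors, Meis1 had 50.2 in the knockout, against 326.5 in floxed/deleted embryos and 134 in wild type/floxed. The difference, on a suffixed probe set of design C, was at least 1.66-fold. Its 2 other probe sets were below the floor. Pbx3 read 389 in the knockout, 356 in floxed/deleted embryos and 318 in wild type/floxed, and it did not stand apart on any of its 3 probe sets. The Polycomb genes Suz12 and Bmi1, whose products keep Hox genes silent, were lower in the knockout. Suz12 read 70.7, against 123.7 in floxed/deleted embryos and 131.7 in wild type/floxed (1.75-fold below the nearer control), and Bmi1 read 101.1, against 157.3 and 204.5 (1.56-fold). Of the other Polycomb genes, Ezh2 (630 in the knockout, 800 in floxed/deleted, 738 in wild type/floxed) and Eed (247, 216 and 232.5) did not stand apart. Cdx2, Cdx4, Aldh1a2, Pbx3, Ezh2 and Eed were picked for comparison with their values known.
Fgf8, a growth factor of the streak, had 2 probe sets that placed the knockout differently. The brightest read 372 in the knockout, 476 in floxed/deleted embryos and 450 in wild type/floxed. The other, on design A, read 111.5 in the knockout, against 10.2 and 56.3, and was at least 1.95-fold higher there.
In other pools, Pbx2, a Hox partner, was above the floor in the knockout and floxed/deleted, at 98.4 and 121, but not in wild type/floxed, at 51.7. Pknox2, a relative of Meis, read 323 in the knockout, 155 in floxed/deleted embryos and 308 in wild type/floxed. Evx1, a homeobox gene of the streak, had 92.1 in the knockout, 150 in floxed/deleted embryos and 97.5 in wild type/floxed. Kmt2a, which maintains Hox expression, had 164 in the knockout, 166.5 in floxed/deleted embryos and 258 in wild type/floxed, but its second probe set read 159, 118 and 121.3 in the knockout, floxed/deleted and wild type/floxed pools. Of the 9 genes lower in the knockout, several probe sets existed for Crabp2, Meis1, Rara and Suz12, and none but the brightest placed the knockout 1.5-fold below both controls. As a mean over measured probe sets the log2 difference from the nearer control was -0.01 for Crabp2 and -0.40 for both Rara and Suz12. With the 70th percentile floor the count of 9 became 3, and with a 2-fold threshold 4.

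**Figure D4:**
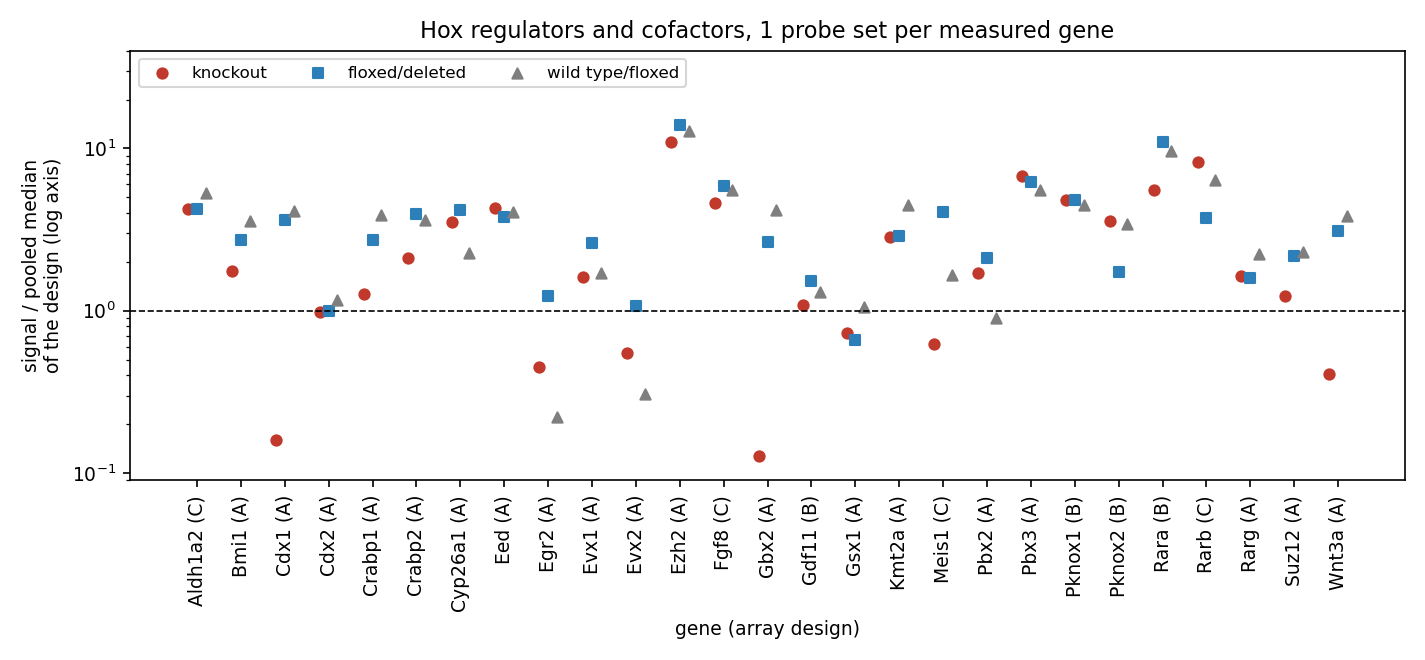
Signal of the brightest probe set of each of 27 measured Hox regulators and cofactors, divided by the pooled median of its array design (log axis), with the design in brackets. Points are the knockout, floxed/deleted and wild-type/floxed pools; Cdx1, Gbx2, Meis1 and Wnt3a lie below the dashed median line in the knockout and above it in both controls.

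Other tissue markers also differed between these pools. Of all measured genes 6.49% stood higher and 5.77% lower in the knockout by the 1.5-fold criterion. The marker lists, like that of the regulators, were chosen with earlier results of these data known. Of 15 visceral endoderm markers 6 stood higher and 0 lower, and their summed signal was 53690 in the knockout, 30100 in floxed/deleted embryos and 34070 in wild type/floxed. Of 10 measured primitive streak and nascent mesoderm markers 3 were lower (Dll1, Tbx6 and Wnt3a) and 0 higher, with sums of 1750, 2566 and 2292. Wnt3a was already counted among the regulators. Of 6 measured epiblast and neuroectoderm markers 5 were higher, with sums of 12670, 7145 and 5674. Of 8 maternal decidua markers 5 were measured and 1 was above the floor on all 3 arrays, with sums of 473.7, 385.9 and 339.8. Des, the gene of desmin, was the 1 that stood higher, at 98.8 in the knockout, against 57.3 in floxed/deleted embryos and 10.8 in wild type/floxed, and 0 stood lower. Prl8a2, a decidual prolactin-family gene, was above the floor in the knockout alone, at 102.1 against 17.6 in floxed/deleted embryos and 11.4 in wild type/floxed. That probe set is suffixed and on design C, and the one on design A read 8.8, 5.3 and 4.1, all below the floor. Bmp2, the gene above the floor on all 3 arrays, had 159.9 in the knockout, against 196.9 in floxed/deleted embryos and 236.8 in wild type/floxed. By any amount, 3 of the 5 measured decidua markers were higher in the knockout than both controls and 1 was lower. Hoxa10 and Hoxa11 are on that list. Of the decidua list, Hoxa10, Pgr and Dcn were below the floor on every array, and a signal above 0 does not show that a transcript was present. The ratio of 5′ to 3′ probe signal for beta-actin on design A was 0.570 in the knockout, 0.655 in floxed/deleted embryos and 0.696 in wild type/floxed, and the knockout had the lowest ratio on B and C as well, whereas for Gapdh the knockout lay between the controls on all 3 designs. The part of these differences in the Hox values was not tested. Ctnnb1, the targeted gene, had 1376 in the knockout, 1509 in floxed/deleted embryos and 1773 in wild type/floxed, and whether its probes lie within the deleted exons is unknown here.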

How the data were processed

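Total RNA of 3 embryo pools was measured on 9 one-colour arrays, 3 designs with 1 array per pool. The deposited values are intensity on a linear scale, 1 per probe set. How the authors summarised and scaled them, the sources used here do not give, but with 2% trimmed at each end the array means were 150.03 to 150.1. Of the scanner settings only the chip type was used here, so batches were not examined.

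Arrays of a design were brought to equal trimmed means, with no value moving by more than 0.00359%. Any value under the design's pooled median was raised to it before log2 was taken. Probe sets were named through the platform annotation where it gives 1 symbol, and the 33 Hox symbols all matched the GRCm38.p6 gene table by gene ID. Described with all 3 values were Hox genes with a probe set at least 1.5-fold from both other pools in any pool, those of paralogue groups 1 and 2, and those above the floor on all 3 arrays. Outside this rule, the remaining measured genes Hoxc4, Hoxb7, Hoxd9 and Hoxa11 were described too, and so was Hoxa10. Regulators at least 1.5-fold from both other pools were named and the rest counted, apart from those said to be picked with values known. The number of arrays limits the precision, and no test was run. The members and the gene lists were chosen with earlier results of these data known. The calculation was tested on simulated data, with changes above 1.5-fold planted in bright probe sets and less noise than between the controls here. That check does not cover calls near the floor or near 1.5-fold. Alternatives covered the floor, scaling, controls, probe sets, threshold and class limits. Python 3.11.15 with numpy 2.4.6 and pandas 2.3.3 was used.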

Additional observations from a re-analysis of the deposited data

Results flagged for a closer look

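Probe sets annotated to more than 1 gene were left out of the comparisons, and 2 of the 4 that include a Hox gene had a signal in the knockout above the floor and above both controls. One, annotated to Hoxb8 and Hoxb7 together, had 79.6 in the knockout, 55.4 in floxed/deleted embryos and 59.0 in wild type/floxed. One, annotated to Hoxd4 and Hoxd3 together, had 64.9 in the knockout, 6.1 in floxed/deleted embryos and 40.5 in wild type/floxed. Neither reached 1.5-fold over the floored value of the nearer control.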

How the results depend on the processing

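In the knockout 5 Hox genes stood lower. Restricting to design A left 2, 8 were lower than floxed/deleted embryos taken as the sole control, and the count was 4 to 7 under the other settings. Hoxb1, Hoxb2, Hoxb13 and Hoxc10 were at least 1.5-fold lower under every setting that kept their probe set, and Hoxa4 under 10 of 13. Higher in the knockout, in place of 0 Hox genes, were 2 with the floor at the 30th percentile and 1 when floxed/deleted was the sole control. In floxed/deleted the 3 higher genes became 6 with the 30th percentile floor and 1 with the 70th percentile floor, on design A alone, without design C and among genes above the floor on all 3 arrays. The 0 lower became 2 with the 30th percentile floor or no floor and 1 without suffixed probe sets. In wild type/floxed the 1 higher gene became 4 with the 30th percentile floor, 2 with no floor, and 0 with the 70th percentile floor, a 2-fold threshold or genes above the floor on all 3 arrays, and the 0 lower became 1 with the 30th percentile floor or none.

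The 9 Hox probe sets that exceeded the floor on every array numbered 19 and 3 with the 30th and 70th percentile floors and 4 without suffixed probe sets. The number measured, 21, was 42 and 11 with those floors. Without a floor this number does not exist. The median over Hox genes of the knockout minus both controls, -0.30, was -0.17 on design A, -0.69 with the 70th percentile floor and 0 with unmeasured genes at 0. That of floxed/deleted minus wild type/floxed, -0.14, was -0.29 on design A, 0 with the 30th percentile floor, 0.005 with the 70th, -0.033 with quantile normalization, -0.27 among genes above the floor on all 3 arrays and 0 with unmeasured genes at 0. The anterior minus posterior median, 0.03, was -0.073 on design A, with equal medians and for paralogues 1 to 6 against 7 to 13. It was -0.18 and -0.20 with the 30th and 70th percentile floors, 1.16 with no floor and -0.093 with quantile normalization. It was -0.076 with floxed/deleted and -0.41 with wild type/floxed as the sole control, -0.33 with unmeasured genes at 0, -0.12 without design C, -0.79 among genes above the floor on all 3 arrays and 0.42 without suffixed probe sets.

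Of the regulators, 9 lower of 27 became 3 with the 70th percentile floor and 4 with a 2-fold threshold. Among the 18 above the floor on all 3 arrays it was 5, against 5.32% of all such genes. Shares over all genes were not computed for the 70th percentile floor or the 2-fold threshold. The 0 higher became 1 with the 30th percentile floor, on design A and without design C (Fgf8 in the last 2), and 2 with either sole control. The settings without design C, with unmeasured genes at 0 and with only genes that exceed the floor on every array were added after seeing the data. Apart from settings that change the samples, genes or threshold themselves, the cause of these moves was not tested. Signals near the floor limit most Hox values, and no setting replaces a second pool.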

Other observations

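Antisense transcripts of the clusters had 5 probe sets, with 2 above the floor on any array. That of Hoxa11os on design C read 909 in the knockout, 743 in floxed/deleted embryos and 2196 in wild type/floxed, on a suffixed probe set, while its 2 probe sets on design A were below the floor. That of Hoxb5os read 55.0 in the knockout, 127 in floxed/deleted embryos and 63.4 in wild type/floxed. Whether these probe sets read the antisense strand alone was not tested.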
